A study of Mus musculus with 7 samples.

Results

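The Notch ligands were followed here through 6 genes, the Delta-like genes Dll1, Dll3 and Dll4, the Jagged genes Jag1 and Jag2, and the Delta-like homologue Dlk1. Every probe set that the platform annotation assigns to one of these symbols was taken, which gave 9 of the 22626 probe sets that are not controls. Dll4, Jag1 and Jag2 had a pair of probe sets each, and the other 3 genes had a single one. The arrays came from bone marrow stromal cells of OsxCre-mCherry;OcnCre-Topaz double transgenic mice, aged 4 to 6 weeks, all given tamoxifen 6 days before the sort. The Ocn+ group (3 arrays) held cells with the Topaz reporter, tied to the osteocalcin promoter, and the Osx+ group (4 arrays) held cells with the mCherry reporter, tied to the osterix promoter. Both groups carried both transgenes and had the same treatment, so no untreated or unlabelled cells serve as a control. The reporters mark cells by the promoter that drives Cre, and cells carrying both reporters were not used here. The labels give neither the sex of the animals nor whether arrays came from separate ones, and a p-value here therefore covers the variation among these arrays alone, part of which may be technical.

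Notch signalling passes between cells that touch. A Delta-like or Jagged protein on one cell binds a Notch receptor on its neighbour, and the pull of the ligand being taken up opens the receptor to cleavage, which frees a fragment that enters the nucleus and turns on Hes and Hey genes with the DNA-binding protein RBPJ. Dll1 and Dll4 activate receptors on neighbouring cells and drive T lineage choice in blood progenitors, and Dll4 is also a ligand of growing vessels. Dll3 acts mainly inside the cell that makes it, Jag1 and Jag2 are ligands with a longer extracellular part, and Dlk1 is an imprinted membrane protein that lacks the receptor-binding domain of the other ligands and restrains adipocyte formation. In bone, Notch ligands on cells of the osteoblast lineage and on marrow endothelium are known as signals to blood progenitors.

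The comparison asked which Notch ligands differ between cells marked through the osteocalcin promoter and cells marked through the osterix promoter. Probe sets of Dll4 and Dll1 were brighter on all 3 Ocn+ arrays than on any Osx+ array, with group means 1.33 to 1.85 log2 units apart, and those of Dll3, Jag1, Jag2 and Dlk1 overlapped between the groups. In limma's fit across all 22626 probe sets, adjusted by Benjamini and Hochberg, 0 of the 9 ligand probe sets had an adjusted p under 0.05, as did 0% of the whole array. At an unadjusted p under 0.05 there were 3 of 9, against 4.85% of the array. The groups were apart without overlap, with Ocn+ higher, in the same 3 of 9, against 3.99% of the array. A difference above 0 was found for 8 of 9, against 50.2% of the array, and the median difference of the 9 was 0.37 against 0.00127 for all probe sets. The 9 probe sets are not 9 independent measurements, since 3 genes contribute a pair each.

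The promoter windows of Dll4 and Dll1, the genes whose groups did not overlap, and of Dlk1, the ligand of highest signal, are shown as RefSeq gives them for mouse build GRCm38.p6. Each is the 250 bases before an annotated start, 5′ to 3′ on the gene's strand. Capitals mark matches on either strand to TGGGAA (RBPJ), GGAAG (ETS family), ACAAT (SOX family) or TGTGGT (RUNX family). The first of these overlaps the second where they share GGAA. The Dll4 window is chr2:119325534-119325783 on the plus strand, the Dll1 window chr17:15376933-15377182 on the minus strand, before the more upstream of the starts listed, and the Dlk1 window chr12:109452573-109452822 on the plus strand.
Dll4: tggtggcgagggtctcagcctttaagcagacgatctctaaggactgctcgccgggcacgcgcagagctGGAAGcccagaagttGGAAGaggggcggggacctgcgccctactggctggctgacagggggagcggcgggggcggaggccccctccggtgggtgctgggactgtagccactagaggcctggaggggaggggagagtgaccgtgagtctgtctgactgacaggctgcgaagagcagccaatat
Dll1: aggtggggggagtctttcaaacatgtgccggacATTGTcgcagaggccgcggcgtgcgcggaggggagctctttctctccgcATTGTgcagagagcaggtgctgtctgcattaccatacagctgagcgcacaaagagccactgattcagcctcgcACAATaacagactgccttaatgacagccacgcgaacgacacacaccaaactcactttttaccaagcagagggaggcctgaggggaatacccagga
Dlk1: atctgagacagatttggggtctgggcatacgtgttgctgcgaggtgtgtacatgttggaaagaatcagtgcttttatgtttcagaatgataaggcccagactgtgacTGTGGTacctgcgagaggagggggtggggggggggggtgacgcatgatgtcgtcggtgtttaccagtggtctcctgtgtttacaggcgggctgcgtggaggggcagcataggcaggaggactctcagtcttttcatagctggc

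The Dll4 window held 2 matches to the ETS family core, which begin 182 and 167 bases before the start. The Dll1 window shown held 3 matches to the SOX family core, which begin 217, 168 and 95 bases before the start. The window before the other listed Dll1 start, not shown, held 0 SOX family matches and 1 ETS family match at 13 bases. The Dlk1 window held a single RUNX family match at 143 bases. The Jag1 window, also not shown, held 1 SOX family match at 163 bases. Among 32851 RefSeq windows of this length, the ETS family core was present in 64.1%, the SOX family core in 27.7%, the RUNX family core in 14.0% and the RBPJ motif in 21.6%. No window of the 6 ligand genes held the RBPJ letters, over 7 listed starts. Such short matches describe letters in a window and are not binding sites.

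Dll4, the vascular and lymphoid-instructive ligand, had a log2 signal of 8.11, 7.94 and 8.50 on Ocn+ replicates 1, 2 and 3 in its brighter probe set (1421827_at). On Osx+ replicates 1 to 4 it stood at 6.88, 5.52, 6.89 and 6.03. The lowest Ocn+ array was thus 1.05 log2 units above the highest Osx+ array, and the Osx+ arrays spread over 1.37 units against 0.56 in Ocn+. Its other probe set (1421826_at) stood at 6.98, 6.69 and 7.16 in Ocn+ and at 5.58, 5.09, 5.76 and 4.85 in Osx+. Both probe sets put every Ocn+ array on top, but the order of the Osx+ arrays differed, with replicate 2 lowest in the brighter probe set and replicate 4 lowest in the dimmer one. The differences were 1.85 (SE 0.38, 3.61-fold) and 1.63 (SE 0.26, 3.08-fold), with unadjusted p of 0.00166 and 0.000426 and limma adjusted p of 0.791 and 0.670. When arrays were weighted by their fit, limma called both probe sets (differences 2.06 and 1.76, adjusted p 0.0430 and 0.0346), while over all alternatives the adjusted p ran from 0.0430 to 1 and from 0.0346 to 1. That weighted fit called 0.301% of the array. It leaned on Ocn+ replicate 2, which had a weight of 6.07 against 0.23 to 2.02 on the other arrays. In bulk RNA, fewer cells of a type and less RNA per cell cannot be told apart, here or in any value that follows.

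Dll1, the ligand closest to Dll4 in its use by lymphoid progenitors, showed the same separation from a single probe set (1419204_at). Its log2 signal was 7.70, 7.59 and 7.36 on Ocn+ replicates 1 to 3 and 5.58, 6.02, 6.68 and 6.62 on Osx+ replicates 1 to 4. The groups were 0.68 log2 units apart at their nearest arrays, Ocn+ replicate 3 and Osx+ replicate 3. The mean was 7.55 ± 0.18 in Ocn+ (SD, n = 3) and 6.22 ± 0.52 in Osx+ (SD, n = 4), a 2.51-fold difference. The log2 difference of 1.33 (SE 0.30) had an unadjusted p of 0.00286 and a limma adjusted p of 0.791. Among Osx+ arrays Dll1 did not follow Dll4, since Osx+ replicate 1 was the lowest array for Dll1 and nearly the highest for Dll4.

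**Figure D1:**
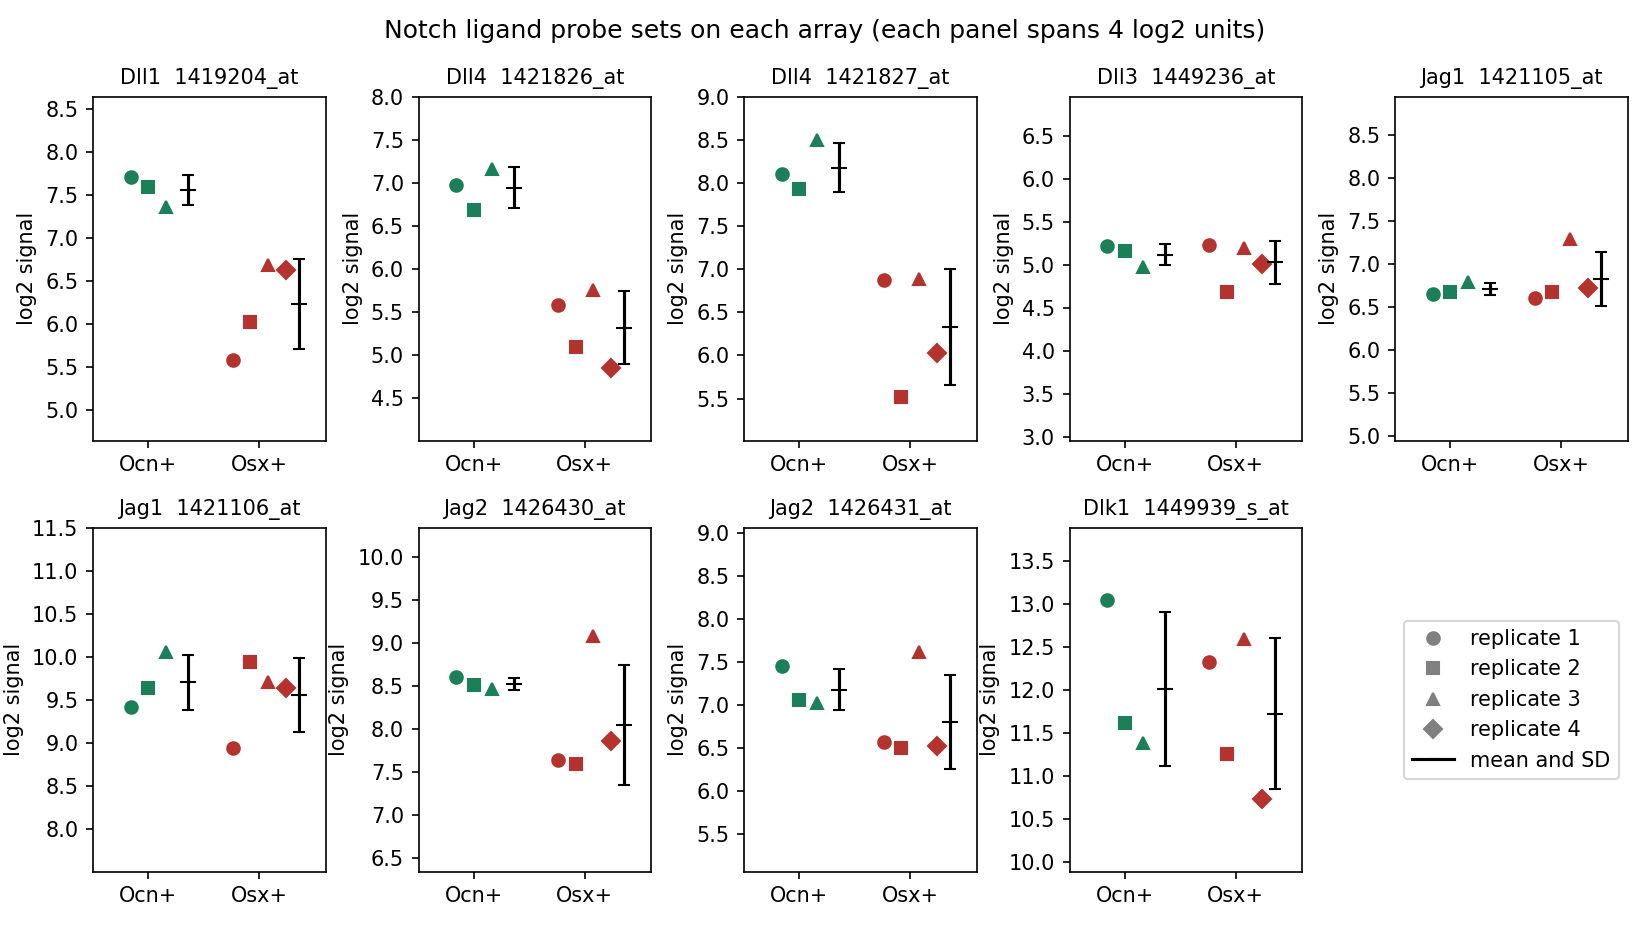
Log2 signal (vertical axis) of the 9 Notch ligand probe sets on each Ocn+ array (green, 3) and Osx+ array (red, 4), with marker shape for the replicate number and black bars for the mean and SD. The Dll1 and both Dll4 probe sets put all Ocn+ arrays above all Osx+ arrays, and in the other 6 panels the groups overlap.

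Dll3, the ligand known from somite formation, was the dimmest member and did not separate the groups. Its signal lay between 4.98 and 5.22 on the Ocn+ arrays and between 4.69 and 5.23 on the Osx+ arrays. Its mean over the 7 arrays lay above that of 18.7% of probe sets, and without detection calls it is not known whether any array stood above background. The difference was 0.10 (95% interval -0.34 to 0.53) and turned to -0.02 without Osx+ replicate 2.

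Jag1, the Jagged ligand known from bone-forming cells, from vessels and from support of blood stem cells, differed little. In its brighter probe set (1421106_at) the signal was 9.42, 9.64 and 10.06 in Ocn+ and 8.95, 9.94, 9.71 and 9.64 in Osx+. The Ocn+ arrays lay inside or near the range of the Osx+ arrays, with Ocn+ replicate 3 highest and Osx+ replicate 1 lowest of the 7. The difference was 0.15 (95% interval -0.52 to 0.81, limma adjusted p = 1.00). It became -0.06 without Osx+ replicate 1 and -0.03 without Ocn+ replicate 3. The dimmer probe set (1421105_at) gave 6.66, 6.68 and 6.79 in Ocn+ against 6.61, 6.68, 7.29 and 6.73 in Osx+, a difference of -0.12 (95% interval -0.60 to 0.36) that became 0.04 without Osx+ replicate 3. The probe sets thus differed in sign, and neither interval holds a difference as large as that estimated for Dll4 or Dll1.

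Jag2, a Jagged ligand also used in lymphoid development, was alike on the Ocn+ arrays and spread widely on the Osx+ arrays. In the brighter probe set (1426430_at) the Ocn+ values were 8.60, 8.51 and 8.47, and the Osx+ values 7.64, 7.60, 9.08 and 7.86. Osx+ replicate 3 was the brightest of all 7 arrays, and the other 3 Osx+ arrays lay below every Ocn+ array. The dimmer probe set (1426431_at) repeated this order of groups, with 7.46, 7.06 and 7.03 in Ocn+ and 6.57, 6.51, 7.62 and 6.53 in Osx+. The differences were 0.48 (95% interval -0.39 to 1.36) and 0.37 (95% interval -0.37 to 1.11), and without Osx+ replicate 3 they were 0.83 and 0.64, with limma adjusted p still above the threshold in all alternatives tried (0.123 to 1 and 0.154 to 1). Osx+ replicate 3 was the brightest Osx+ array in 7 of the 9 ligand probe sets, among them both of Dll4 and both of Jag2. The share of all probe sets that are brightest on it was not counted. The same array had the largest 3′ minus 5′ signal of the Gapdh control probe sets, 1.26 log2 units, a measure of how far signal falls off towards the 5′ end, against 0.59 to 0.89 on the other 6, and the largest of the Actb control probe sets, 0.77 against 0.46 to 0.60. The part of this in the ligand values was not tested.

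Dlk1 had the highest signal of the 6 genes and a wide spread within both groups. Its probe set (1449939_s_at) stood at 13.04, 11.61 and 11.38 on the Ocn+ arrays and at 12.33, 11.25, 12.59 and 10.73 on the Osx+ arrays. The SD was 0.90 in Ocn+ and 0.88 in Osx+, about 3 times the group difference of 0.28 (SE 0.58, 95% interval -1.09 to 1.66). That difference became -0.23 without Ocn+ replicate 1 and -0.05 without Osx+ replicate 4. Signals of different probe sets are not on a common scale, so the order of the 6 genes describes signal and not transcript number.

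The spread of Dlk1 ran along another line than the groups. The arrays fell into 4 with high Xist signal (12.33 to 12.96, with 2 Ocn+ and 2 Osx+) and 3 with low signal (4.87 to 5.79, with 1 Ocn+ and 2 Osx+), Xist being the RNA that silences an X chromosome in female cells. Dlk1 stood at 10.73 to 11.61 on the 4 high-Xist arrays and at 12.33 to 13.04 on the 3 low-Xist arrays. Among low-Xist arrays Dlk1 was 13.04 in Ocn+ against 12.33 and 12.59 in Osx+. Among high-Xist arrays it was 11.61 and 11.38 against 11.25 and 10.73. Every Ocn+ array was thus above every Osx+ array of its class, but the classes are small. The share of all probe sets with such an order was not counted, so it is not known to be particular to Dlk1. With the class as a term in limma, the high minus low difference of Dlk1 was -1.50 (SE 0.17, limma adjusted p = 0.00511). This comparison was added after the values were seen. The class term was called for 1 of the 9 ligand probe sets and for 27.7% of the array, so a difference between the classes is common and not particular to Dlk1. With the class as a term the Ocn+ minus Osx+ difference of Dlk1 was 0.53 (unadjusted p = 0.0200, limma adjusted p = 0.243), and it was 0.50 within the high class and 0.58 within the low class. The Gapdh 3′ minus 5′ signal was 0.59 to 0.64 on high-Xist arrays and 0.89 to 1.26 on low-Xist arrays, while that of Actb overlapped between the classes, at 0.46 to 0.50 and 0.47 to 0.77. The part of RNA quality in the class difference was not tested.

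**Figure D2:**
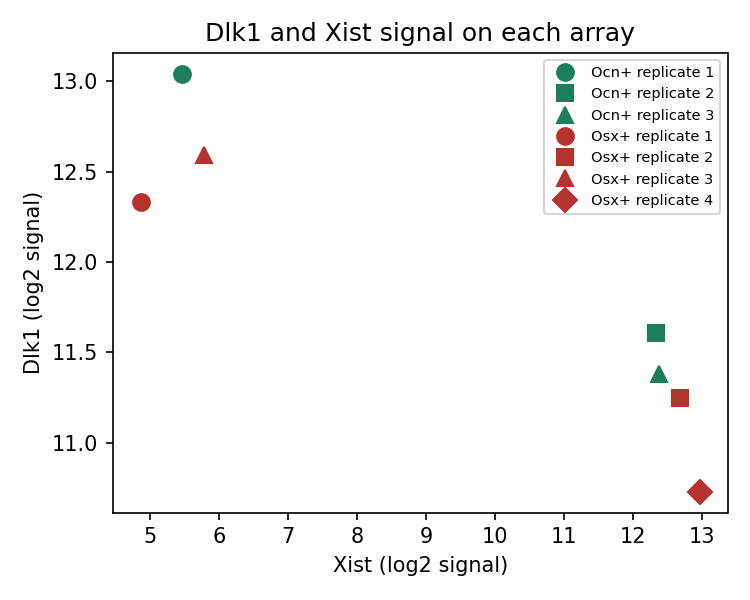
Log2 signal of Dlk1 (vertical axis) against that of Xist (horizontal axis) on each of the 7 arrays, Ocn+ in green and Osx+ in red, with a marker for each replicate. The 3 low-Xist arrays have Dlk1 between 12.33 and 13.04, and the 4 high-Xist arrays between 10.73 and 11.61. On each side Ocn+ lies above Osx+, in a split made after the values were seen.

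The other ligands moved less with the Xist class. Ranges of the classes were apart, with the high class lower, for 2 of the 9 probe sets, Dlk1 and Dll3, against 18.4% of the array, and the Dll3 ranges nearly touched at 5.17 and 5.20. The Dll4 differences within the high class were 2.44 and 1.95, and within the low class 1.22 and 1.32, for the brighter and the dimmer probe set. The Dll1 difference was 1.16 within the high class and 1.57 within the low class. The low-class values rest on a single Ocn+ array. The difference between the classes was tested as an interaction and did not pass for any of the 9 probe sets (limma adjusted p = 0.999 for each), the smallest unadjusted p being 0.0366 for the brighter Dll4 probe set.

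**Figure D3:**
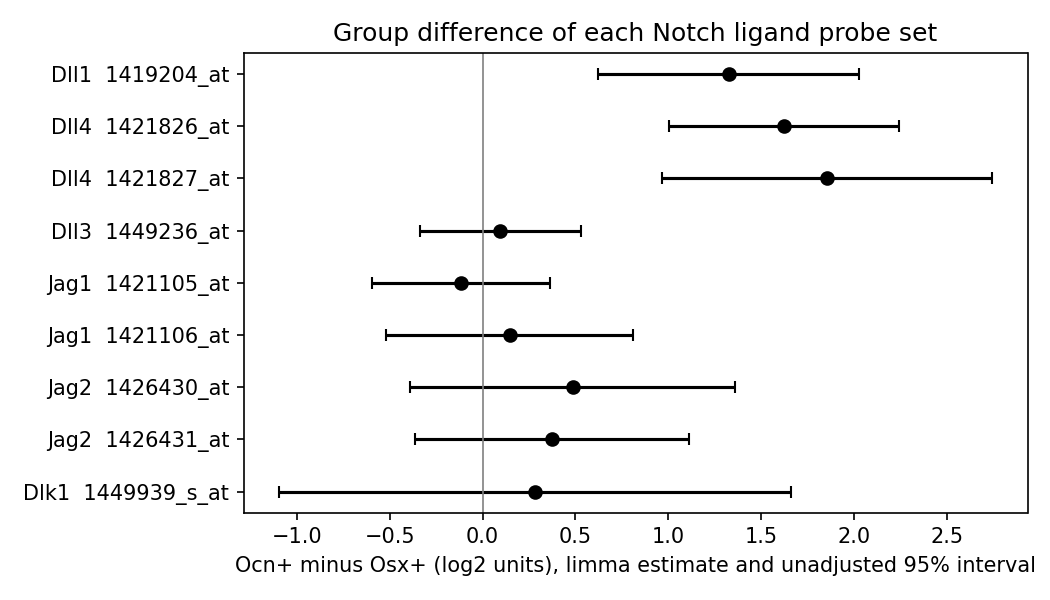
Ocn+ minus Osx+ difference in log2 units (horizontal axis) of each Notch ligand probe set, as limma's estimate (point) with its unadjusted 95% interval (bar). The intervals of Dll1 and of both Dll4 probe sets lie above 0, from 0.62 to 2.74 in all, and the other 6 include 0.

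The Delta-like genes did not share one pattern relative to the Jagged genes. Each was set against Jag1 and Jag2 within arrays, as a description with no test, added after the values were seen and after Dll4 and Dll1 were known to separate the groups. The Dll4 minus Jag1 signal was -1.31, -1.70 and -1.56 on the Ocn+ arrays and -2.06, -4.42, -2.82 and -3.61 on the Osx+ arrays, a group difference of 1.71 without overlap. The Dll4 minus Jag2, Dll1 minus Jag1 and Dll1 minus Jag2 signals differed by 1.37, 1.18 and 0.84 between the groups, again without overlap. The Dll3 minus Jag1 and Dll3 minus Jag2 signals differed by -0.05 and -0.39, and both overlapped between the groups.

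Each ligand was then set against Alpl, the alkaline phosphatase of mineralizing osteoblasts, and Cdh5, the cadherin of endothelial junctions, over the 7 arrays. Dll4 and Dll1 had the highest Pearson r with Cdh5, 0.91 and 0.90, followed by Jag2 at 0.60. Cdh5 stood at 9.49, 10.54 and 10.95 in Ocn+ and at 6.55, 5.80, 7.62 and 7.56 in Osx+, in its brighter probe set (1433956_at). Its other probe set (1422047_at) stood at 6.62, 7.73 and 8.44 in Ocn+ and at 5.65, 5.11, 5.51 and 5.65 in Osx+. The groups lie far apart in Cdh5, so a ligand that differs between the groups must correlate with it to some degree. With all probe sets of each gene averaged, r with Cdh5 was 0.90 for Dll4, 0.85 for Dll1 and 0.49 for Jag2. It was 0.30 for Dll3, 0.18 for Jag1 and 0.01 for Dlk1. With group means subtracted, r with Cdh5 was 0.48 for Dll4, 0.46 for Dll1, 0.51 for Jag2, 0.25 for Jag1, 0.29 for Dll3 and -0.29 for Dlk1. Without Ocn+ replicates 2 and 3, the arrays farthest from the median of Cdh5, r was 0.84 for Dll4 and 0.92 for Dll1. This leaves a single Ocn+ array, which lies above all Osx+ arrays in Cdh5 and in both ligands. A high r is then largely set by the separation of the groups and adds no separate support.

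For Dll4 Spearman's rho with Cdh5 was 0.93, and for Dll1 0.82. The exact permutation p for r was 0.0107 and 0.0123 (n = 7), and the p for rho 0.00675 and 0.0341 by the same test. Adjusted over the 12392 other genes correlated with Cdh5 the p for r was 0.709 and 0.719, and that for rho 0.721 and 0.831, and 99.5% and 99.4% of those genes had a lower r. Jag2 had r = 0.60 and rho = 0.64 (exact permutation p = 0.158 and 0.139), and without Osx+ replicate 3 its r was 0.94. Dll3, Jag1 and Dlk1 had r of 0.35, 0.29 and 0.06 and rho of 0, 0.29 and 0.25, with exact permutation p from 0.475 to 1. Within the Xist classes, of 4 and 3 arrays, too few arrays remained for a correlation.

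Alpl offered little range to correlate with. It stood at 13.73, 13.87 and 13.83 in Ocn+ and at 13.66, 13.63, 13.73 and 13.76 in Osx+, above the signal of 98.3% of probe sets on average. Dll1 had r = 0.80 and rho = 0.68 with Alpl (exact permutation p = 0.0302 and 0.110), and Dll4 r = 0.70 and rho = 0.64 (exact permutation p = 0.0778 and 0.139). The other 4 ligands had r of 0.54 for Jag2, 0.32 for Dll3, 0.31 for Jag1 and -0.19 for Dlk1, with rho of 0.43, -0.11, 0.14 and -0.11 and exact permutation p from 0.215 to 0.840. Adjusted over 12392 genes the exact permutation p was 1 for all 6. Without Ocn+ replicate 2 and Osx+ replicate 2, farthest from the median of Alpl, r was 0.71 for Dll1, 0.47 for Dll4, 0.36 for Jag2, 0.95 for Jag1, -0.82 for Dll3 and -0.51 for Dlk1. With group means subtracted, r with Alpl was 0.48 for Dll1, 0.16 for Dll4, 0.34 for Jag2, 0.23 for Jag1, 0.20 for Dll3 and -0.48 for Dlk1. Without Osx+ replicate 2 alone, r with Alpl was 0.72 for Jag1 and -0.45 for Dll3. Without Ocn+ replicate 2 alone it was 0.40 for Jag1 and 0.24 for Dll3. Without Osx+ replicate 1 alone it was -0.08 for Jag1 and 0.56 for Dll3. Of the 12 correlations, 3 had an unadjusted exact permutation p for r under 0.05 and 0 an adjusted one. The 3 were Dll1 with Alpl, and Dll4 and Dll1 with Cdh5, the ligands whose groups were apart. The share of all genes under the same unadjusted threshold was not counted, so this count is not read as a result about the ligands.

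**Figure D4:**
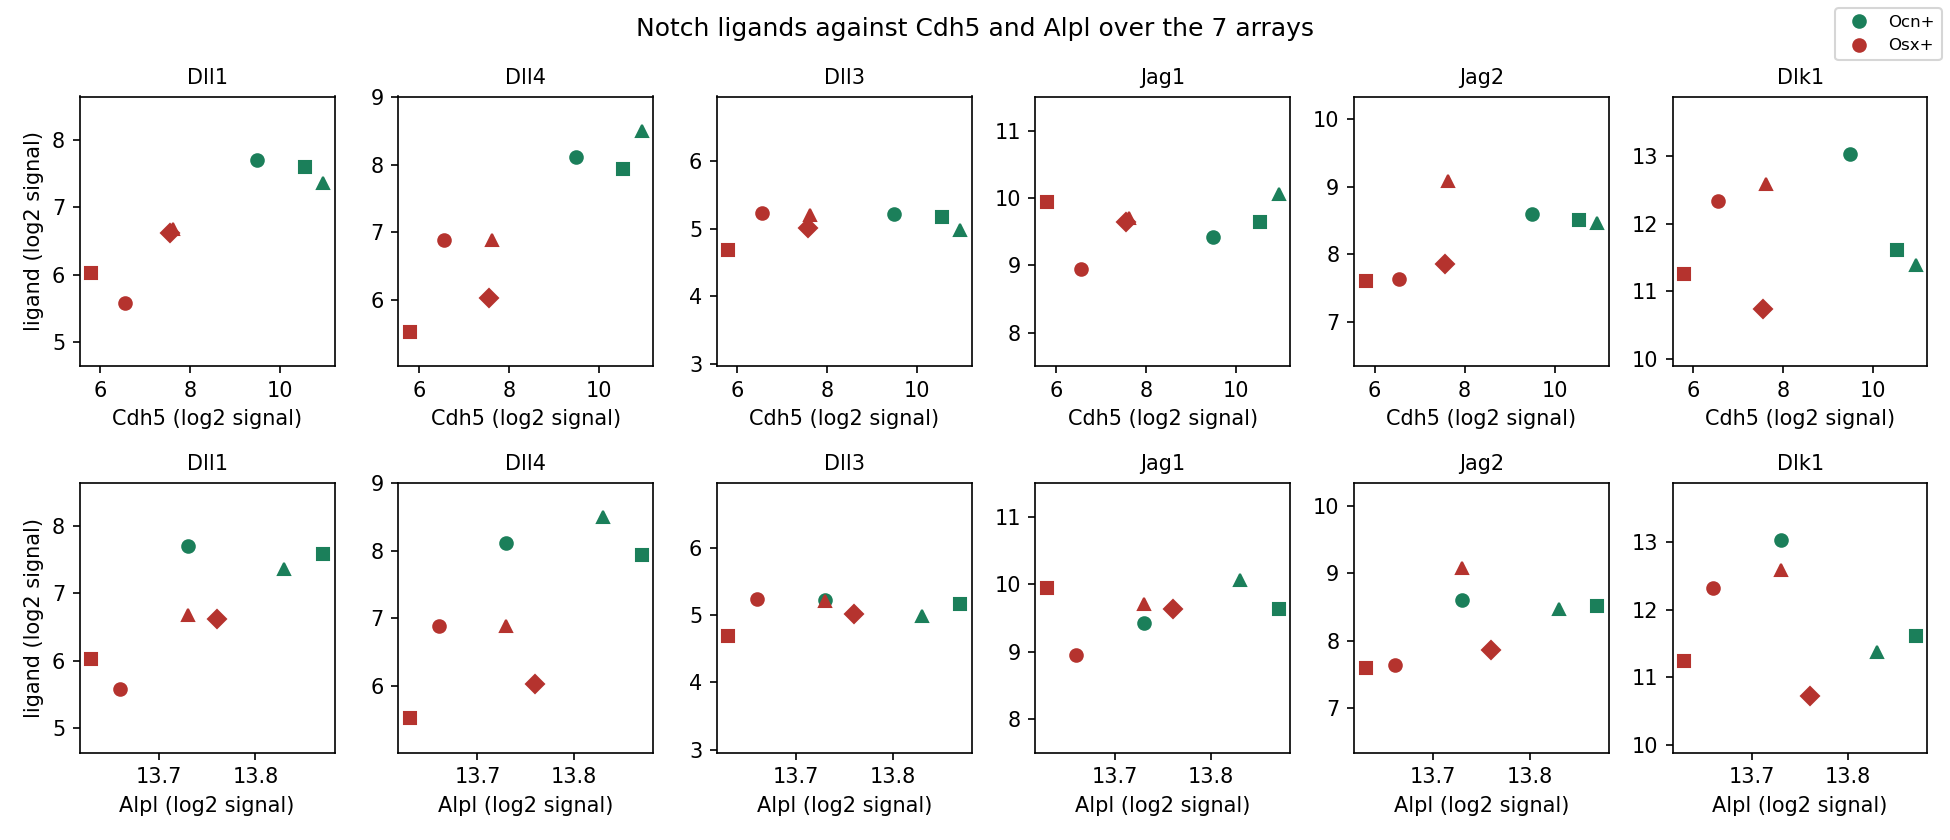
Log2 signal of each ligand's brighter probe set (vertical axes, each spanning the same range) against Cdh5 (upper row) and Alpl (lower row) on the 7 arrays, Ocn+ in green and Osx+ in red, with marker shape for the replicate number as circle (1), square (2), triangle (3) and diamond (4). The Ocn+ arrays lie upper right for Dll1 and Dll4 against Cdh5, with the groups apart on both axes, while Alpl covers only 13.63 to 13.87.

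Marker lists of several other cell types also stood apart between the groups. Of 20 endothelial markers, all measured, 20 had a difference above 0, and their mean signal was 9.49 to 9.80 on Ocn+ arrays and 6.41 to 9.11 on Osx+ arrays. Osx+ replicate 2, the lowest array for the brighter Dll4 probe set and for Cdh5, was lowest in this list, and Osx+ replicate 3 was highest of the 4. The dimmer Dll4 probe set was instead lowest on Osx+ replicate 4 (4.85), and Dll1 on Osx+ replicate 1 (5.58). Osx+ replicates 1 and 3 had list means of 7.90 and 9.11 but 6.88 and 6.89 in the brighter Dll4 probe set. Of 9 arterial markers 7 were above 0, with 7.97 to 8.20 in Ocn+ and 7.37 to 8.25 in Osx+, and of 8 sinusoidal and venous markers 5 were, with 8.70 to 9.22 and 8.23 to 8.95. The 7 measured osteoclast markers (of 9) stood at 10.58 to 11.07 in Ocn+ and 8.01 to 10.38 in Osx+, and the 11 measured neutrophil markers (of 12) at 10.93 to 11.15 and 7.38 to 10.59. The 8 osteocyte markers stood at 10.58 to 10.94 in Ocn+ and 9.003 to 10.50 in Osx+. The 11 measured macrophage markers (of 12) went the other way, with 9.56 to 10.76 in Ocn+ and 10.93 to 12.12 in Osx+. The 9 measured osteoblast markers (of 13) stood at 12.90 to 13.36 in Ocn+ and 12.71 to 13.42 in Osx+, overlapping between the groups. Signals of different probe sets share no scale, so this brightness does not by itself identify the cells. The 10 cartilage markers stood at 10.13 to 11.50 in Ocn+ and 10.81 to 12.91 in Osx+, with 9 of 10 differences below 0. Of the 2 genes whose promoters marked the cells, osteocalcin (Bglap) has no value here. Osterix (Sp7) stood at 12.26, 12.93 and 12.77 in Ocn+ and at 12.28, 12.62, 12.15 and 12.83 in Osx+, overlapping between the groups. A log2 array signal has no zero, so no marker can be called absent, and the part of these cell types in the ligand differences was not tested.

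Around the ligands, the 8 lists of the Notch pathway held 58 genes, of which 48 were measured. In limma's fit across 12393 genes 0 of the 48 were called, as were 0% of all genes. At an unadjusted p under 0.05 there were 6 higher and 0 lower in Ocn+, or 6 of 48 against 5.31% of all genes in either direction. The median difference of the 48 was 0.06 against 0.02 for all genes, with 30 above 0, or 30 of 48 against 52.7% of all genes.

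The receptors Notch1 to Notch4 all had differences above 0. Notch4, the receptor of endothelium, stood at 9.56, 8.87 and 9.14 in Ocn+ and at 7.19, 5.57, 9.22 and 5.91 in Osx+, with Osx+ replicate 3 inside the Ocn+ range. Notch3, the receptor of mural cells, had 11.35, 10.93 and 11.26 against 10.52, 9.67, 11.18 and 10.12, again with Osx+ replicate 3 among the Ocn+ arrays. Notch1 and Notch2, the widely used receptors, differed by 0.31 (SE 0.32) and 0.02 (SE 0.24).

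Of the 6 Notch target genes 5 had a difference above 0 and 3 an unadjusted p under 0.05, the median difference being 0.89. Heyl, a transcriptional repressor turned on by Notch, did not overlap between the groups, with 8.27, 8.10 and 7.98 in Ocn+ and 5.69, 6.15, 7.39 and 6.70 in Osx+, a difference of 1.64 (SE 0.39, limma adjusted p = 0.689). Hes1, another such repressor, differed by 0.94 (SE 0.32), Hey1 by 0.84 (SE 0.31) and Nrarp, a feedback inhibitor, by 1.75 (SE 0.98). Epn2, an endocytic adaptor of ligand-bearing cells, was higher on every Ocn+ array (10.21, 10.16 and 10.39 against 9.26, 9.84, 9.45 and 9.98). Its difference was 0.62 (SE 0.22, limma adjusted p = 0.888). Heyl and Epn2 were the only 2 of the 48 pathway genes higher in Ocn+ without overlap, against 3.99% of all probe sets. Such a separation is therefore about as common in these lists as over the array. Mib1, the ubiquitin ligase that marks ligands for uptake, differed by -0.27 (SE 0.20).

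The list of enzymes that add sugars to Notch receptors held 0 members of 5 with an unadjusted p under 0.05. Mfng, a fringe enzyme of the kind that tunes a receptor between Delta-like and Jagged ligands, differed by 1.27 (SE 0.58), and Poglut1, a glucose-adding enzyme that is not a fringe, by -0.14 (SE 0.16). Receptor cleavage genes had 0 of 7 measured, with Psen2 at 0.32 (SE 0.26) and the sheddase Adam17 at -0.34 (SE 0.31). Receptor turnover genes had 0 of 7, with Numbl at 0.34 (SE 0.27) and Numb at 0.15 (SE 0.19), and nuclear complex genes 0 of 6, with Maml1 at 0.20 (SE 0.17) and Rbpj at -0.19 (SE 0.50). Of the other 8 Notch-binding proteins, 1 had an unadjusted p under 0.05, Egfl7, a secreted protein of endothelium, at 2.17 (SE 0.85), and Dner differed by 1.02 (SE 0.46).

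The genes whose pattern over the 7 arrays was most like that of each ligand were ranked by Pearson r among 6121 genes of at least median signal, as a description without a test. For Dll4 they were Plvap, the diaphragm protein of fenestrated endothelium (r = 0.98), Uqcrc2, a subunit of respiratory complex III (0.98), and Nudt22 (0.97). Plvap ran from 10.72 to 11.18 on the Ocn+ arrays and stood at 9.48, 6.37, 8.69 and 7.35 on the Osx+ arrays. Its lowest array, Osx+ replicate 2, was also that of the brighter Dll4 probe set but not of the dimmer one. For Dll1 they were Tmco6 (0.99), the transcription factor Cebpb (0.97) and Plscr1 (0.96). Cebpb stood at 12.30, 12.16 and 12.15 in Ocn+ and at 10.66, 10.96, 11.12 and 11.27 in Osx+. For Jag1 they were Cttnbp2nl (0.98), the transcription factor Mitf (0.96) and Nrp1, a receptor of semaphorins and vascular growth factors (0.95).

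Jag2 was most like Sdf2 (0.97), the immune regulator Cd276 (0.97) and the scaffold protein Slc9a3r2 (0.97), each brightest on Osx+ replicate 3. Dlk1 was most like Cct5, a chaperonin subunit, Trip10 and Sod2, the mitochondrial superoxide dismutase (0.99 each), and Sod2, like Dlk1, was higher on the 3 low-Xist arrays (12.56 to 12.87) than on the 4 high-Xist ones (11.74 to 12.18). Dll3 was most like Oxnad1, Gpr153 and Efs (0.98 each), at a signal of its own that spanned 0.53 log2 units in Osx+.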

How the data were processed

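Total RNA from flow-sorted cells was amplified with the NuGEN Ovation V2 single-primer method and hybridised to Affymetrix mouse arrays, per the labels' protocols and the probe set names. The authors deposited log2 signals, 1 for each probe set on each array, from RMA (background correction, quantile normalization, probe set summary), per the submitters' processing notes. The RMA version is not given in the sources used here. Array medians were 8.25 to 8.35. An array has no read depth, and the number of arrays, 3 against 4, limits the precision.

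Of 22690 probe sets 64 were controls. Names came from the platform annotation, where 20380 probe sets had 1 symbol, 691 several and 1555 none listed, and 20351 of the first were matched by Entrez identifier. Ocn+ minus Osx+ was fitted on all probe sets in limma 3.58.1 under R 4.3.3 (lmFit, eBayes, no covariate, 2-sided), with Benjamini-Hochberg adjustment and a threshold of 0.05. Lists used 1 probe set a gene, that of highest mean (12393 genes). Correlations used exact permutation of pairings. Named genes were the ligands, Alpl and Cdh5, the 2 genes of smallest p per pathway list (4 for receptors and targets) and the 3 genes most correlated with each ligand. Other genes are marker lists given as means. The members and lists were chosen with earlier results of these data known. RefSeq promoter windows (GRCm38.p6) matched all 6 genes by symbol. Simulated data had 22626 probe sets with 200 changed. There the Ocn+ minus Osx+ fit recovered 19.7%, 59.2% and 87.9% of changes of 1, 2 and 4 log2 units. It made 6.05 false calls per run. How closely the simulated noise resembles that of the deposited arrays was not tested. On those arrays the Xist class term was called for 27.7% of probe sets. Cdh5 was not called there at a difference of 3.44 (limma adjusted p = 0.670). The recovered shares are therefore not read as the chance of a call on these 7 arrays. Alternatives are given in the closing section.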

Additional observations from a re-analysis of the deposited data

Results flagged for a closer look

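Among the 4 Osx+ arrays, replicate 3 stood far from the others in the Jag2 probe set 1426431_at, at 7.62 against 6.51 to 6.57. The gap between it and the nearest array was 0.939 of the whole range of the group. The limit used is passed by chance in about 1 in 20 groups of 4 arrays, and 12 probe sets, those of the 6 ligands, Alpl and Cdh5, were examined in Osx+. The other Jag2 probe set had 9.08 on the same array, with a gap of 0.825 of the range, which stayed below the limit used.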

How the results depend on the processing

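The Dll1, Dll4 and Jag2 differences stayed above 0 in every alternative run. They ran from 1.11 to 1.57 for Dll1, 1.22 to 2.44 and 1.32 to 1.95 for the Dll4 probe sets, and 0.24 to 0.83 and 0.24 to 0.64 for the Jag2 probe sets. With array weights both Dll4 probe sets passed (2.06 and 1.76), and 68 probe sets were called in place of 0 over the whole array. Ocn+ replicate 2 had the highest weight (6.07) and Osx+ replicate 1 the lowest (0.23). The weights followed the Xist class, at 0.23 to 0.47 on the 3 low-Xist arrays and 1.12 to 6.07 on the 4 high-Xist arrays. The weighted calls thus rest mostly on the high-Xist arrays. Leaving out an array gave 0 to 5 calls, with 5 without Osx+ replicate 3 and 2 without Osx+ replicate 2. Leaving out each array gave -0.23 to 0.60 for Dlk1, -0.02 to 0.17 for Dll3, and -0.19 to 0.04 and -0.06 to 0.29 for the Jag1 probe sets 1421105_at and 1421106_at. The first of these Jag1 sets was at 0.03 within the high-Xist arrays.

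The labels do not say whether a replicate number shared by the groups pairs the samples. Deviations from the group means correlated at 0.66, 0.48 and -0.36 for numbers 1, 2 and 3. The arrays numbered 1 were both low in Xist and those numbered 2 both high, while those numbered 3 differed in class. These correlations therefore cannot tell pairing from Xist class. With the replicate number as a block the Dlk1 difference was -0.05, and no call changed (0 probe sets called). The filter on the 25th percentile of signal left out Dll3, and that on the median kept only Dlk1 and the Jag1 set 1421106_at, so the others have no value there.

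Leave-one-out ranges of r with Alpl were -0.45 to 0.56 for Dll3 and -0.08 to 0.72 for Jag1. With Cdh5 they were -0.33 to 0.58 for Dll3, -0.07 to 0.67 for Jag1 and -0.15 to 0.26 for Dlk1. Without the 2 arrays farthest from the reference's median, r was -0.82 for Dll3 with Alpl and -0.16 for Jag1 with Cdh5. With group means subtracted it was -0.29 for Dlk1 with Cdh5. The cause of these sign changes was not tested.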
